A study of Mus musculus with 7 samples.

Results

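The genes of the insulin-like growth factor (IGF) system were followed by RNA sequencing of mouse left ventricle. The 10 genes, listed by symbol and selected on earlier results of the same contrast in these libraries, were the ligand genes Igf1 and Igf2, H19, the receptor genes Igf1r and Igf2r, and the binding protein genes Igfbp3, Igfbp4, Igfbp5, Igfbp6 and Igfbp7. Of these, 9 had a row in both tables, out of 22027 genes listed, and all 9 passed the filter on low counts that kept 12674 genes. H19, the noncoding neighbour of Igf2 that is expressed from the other parental copy, was not analysed here, so the relation of this imprinted pair is not given. The libraries were 3 labelled G3 PGC1aOE, from telomerase-deficient mice that the labels describe as overexpressing PGC1alpha, and 4 labelled G3, from telomerase-deficient mice without that label. All mice were telomerase-deficient C57BL/6J animals aged 12 months, so no group had intact telomerase. The labels name neither the promoter that drove PGC1alpha nor the cells in which it acted. They also do not tell whether each library is a separate animal, so any p-value speaks of the spread among these 7 libraries.

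IGF1 and IGF2 are small secreted proteins related to insulin. Both act through IGF1R, a receptor tyrosine kinase that promotes growth and survival of heart muscle, while IGF2R has no kinase and carries IGF2 to the lysosome for breakdown. The binding proteins hold the ligands outside the cell and release them when proteases cut them. In rodents Igf2 is expressed strongly before birth and is largely silenced in most tissues afterwards.

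Total counts ran from 10106705 to 16056740 per library. Ppargc1a, which encodes PGC1alpha, stood at 103, 43.9 and 58.1 counts scaled by library size (CPM) in G3 PGC1aOE 1 to 3, against 94.7, 56.8, 118 and 86.7 CPM in G3 1 to 4. Its log2 fold change, G3 PGC1aOE minus G3, was -0.384, with a standard error of 0.335 (edgeR, adjusted p = 0.847). The 95% limits were -1.125 and 0.358, and the groups overlapped. The message thus does not show the overexpression that the label names, and every direction below rests on the label alone. The description of each sample also carries a code of letters and a number whose meaning is not stated. The letter C is in the code of all 3 G3 PGC1aOE libraries and of G3 1 and G3 2, and absent from that of G3 3 and G3 4. The codes of G3 PGC1aOE 1, G3 1 and G3 3 read G2 where the others read G3, although all 7 group labels say G3. The letter P is in the code of all 3 G3 PGC1aOE libraries and also in that of G3 4. The code number is at least 80 in G3 PGC1aOE 2, G3 PGC1aOE 3 and G3 4. Markers of ventricular heart muscle were abundant in every library, with summed levels of 48458 to 72739 CPM in G3 PGC1aOE and 46191 to 62304 CPM in G3.

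The DNA just before the start of 4 member genes is shown because both receptor genes had negative fold changes in G3 PGC1aOE against G3, and Igf2 and Igfbp7 the largest positive ones. The RefSeq windows (GRCm38.p6) hold the 250 bases before an annotated start and are printed on the gene's strand. The windows are chr7:67952007-67952256 (plus strand) for Igf1r, chr17:12769707-12769956 (minus) for Igf2r, chr7:142657497-142657746 (minus) for 1 of 4 annotated Igf2 starts, and chr5:77408046-77408295 (minus) for Igfbp7. None of these windows holds a base of an exon annotated in GENCODE M21. Capitals mark matches, on either strand, to 5 motifs. TNAAGGTCA is the element bound by the ERR nuclear receptors, which are partners of PGC1alpha. GTAAACA is a site of FOXO factors, which insulin and IGF signalling restrains. The GC box was searched as GGGCGG. The letters of the TATA box were TATAAA. The E-box was searched as CACGTG.
Igf1r: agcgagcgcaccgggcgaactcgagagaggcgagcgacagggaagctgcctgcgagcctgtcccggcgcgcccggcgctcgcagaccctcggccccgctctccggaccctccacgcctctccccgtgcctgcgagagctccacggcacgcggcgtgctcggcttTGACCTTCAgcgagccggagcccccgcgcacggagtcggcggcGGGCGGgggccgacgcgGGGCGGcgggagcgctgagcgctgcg
Igf2r: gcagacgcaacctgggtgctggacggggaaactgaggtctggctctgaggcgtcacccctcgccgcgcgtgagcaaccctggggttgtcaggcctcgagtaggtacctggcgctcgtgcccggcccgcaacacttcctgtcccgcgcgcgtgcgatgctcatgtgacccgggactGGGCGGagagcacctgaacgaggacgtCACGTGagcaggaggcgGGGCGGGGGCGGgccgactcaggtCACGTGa
Igf2: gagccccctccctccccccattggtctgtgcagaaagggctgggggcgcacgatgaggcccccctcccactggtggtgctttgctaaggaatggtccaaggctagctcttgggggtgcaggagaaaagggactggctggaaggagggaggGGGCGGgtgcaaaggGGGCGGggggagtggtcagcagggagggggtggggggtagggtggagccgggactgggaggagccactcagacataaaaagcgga
Igfbp7: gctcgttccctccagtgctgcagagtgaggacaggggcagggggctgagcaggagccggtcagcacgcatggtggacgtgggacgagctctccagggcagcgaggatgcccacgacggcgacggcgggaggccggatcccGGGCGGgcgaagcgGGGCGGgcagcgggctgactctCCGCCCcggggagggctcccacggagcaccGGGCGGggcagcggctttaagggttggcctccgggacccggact
All 9 measured members had at least 1 window in the table. The Igf1r window held the single match to TNAAGGTCA among the members, on the opposite strand from base -86 to base -78, counted back from the start. That motif was present in 1.14% of all 32851 windows of the same length. GC boxes were found in windows of Igf1r, Igf2, Igf2r and Igfbp7 and in 32.7% of all windows. The printed Igf2 window held 2 GC boxes, the most among the 4 Igf2 windows. Another Igf2 window held 1, and the rest held no match to any motif. In the Igf2r window stood 2 E-boxes, against a share of 6.02% with any. TATAAA was found for Igfbp4 and Igfbp6 and in 12.4% of all windows. GTAAACA was in no member's window and in 3.17% of all. These matches describe the letters in the window and are no measure of binding.

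The members were listed with the contrast of G3 PGC1aOE against G3 in view, so their values in it are a description. In edgeR's quasi-likelihood test over all 12674 genes, 0 genes (0%) had an adjusted p under 0.05, and 0 of the 9 members did. At an unadjusted p under 0.05 there were 548 of the 12674 genes. That share lies below 0.05, the share expected at this threshold if no gene differed. DESeq2 called 3 genes (0.0237%), none of them a member, and limma voom called 0. Of the members, 6 had a positive log2 fold change and 3 a negative one, with a median of 0.43, beside a median of 0.01 over all genes tested. In whole tissue, a change in the number of cells of a type and a change in RNA per cell cannot be told apart.

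**Figure D1:**
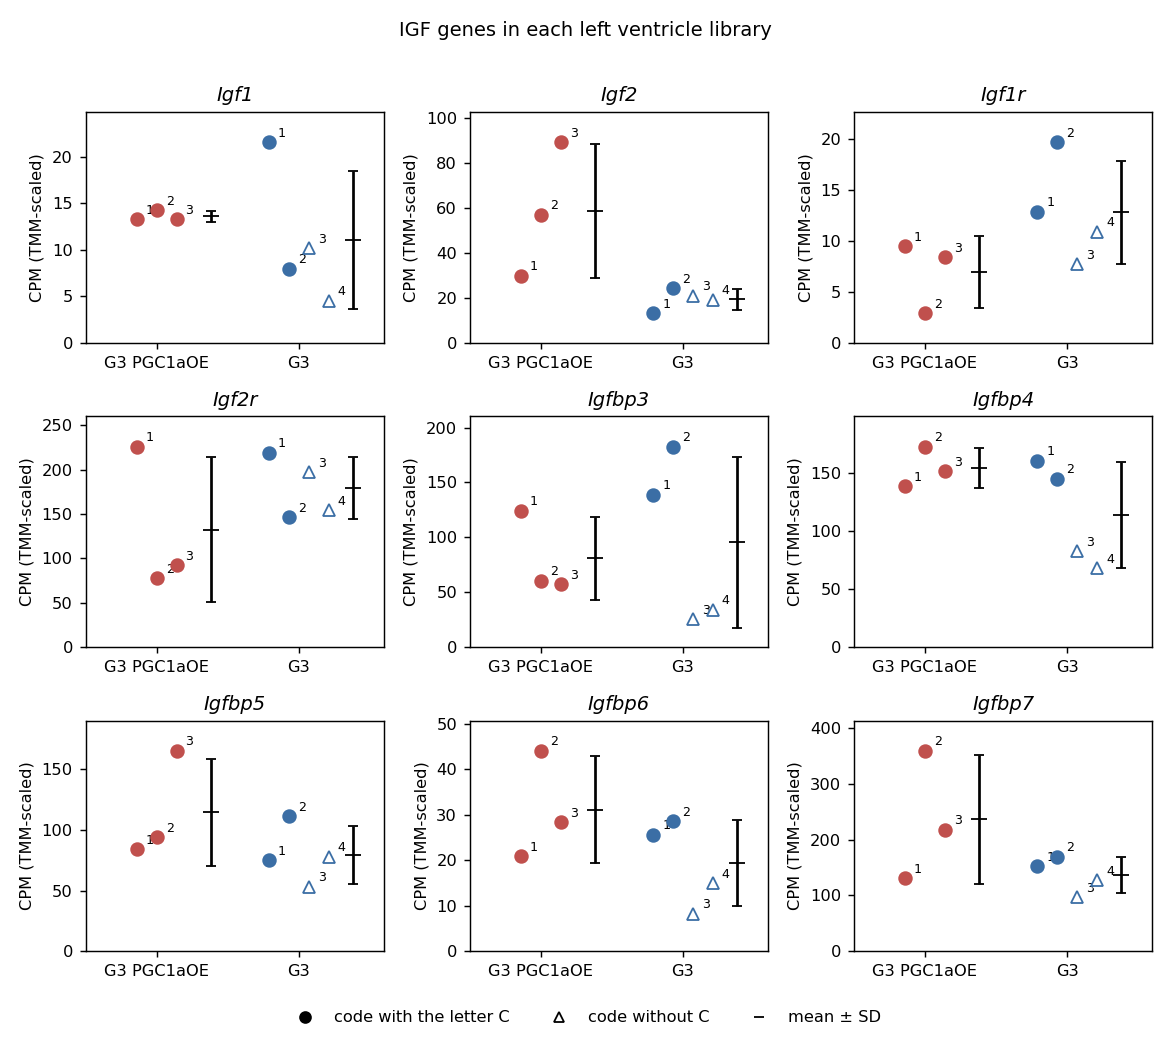
CPM of the 9 members in each library, with G3 PGC1aOE at the left (red) and G3 at the right (blue). The points are libraries with their replicate number, filled circles for codes with the letter C and open triangles for codes without it, and the bars are mean ± SD (n = 3 and n = 4). Igf2 is the gene whose groups do not overlap, and G3 3 and G3 4 are the 2 lowest points for Igfbp3, Igfbp4, Igfbp6 and Igfbp7.

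Igf2 stood apart among the ligands. It measured 29.9, 57.2 and 89.4 CPM in G3 PGC1aOE 1 to 3, from 385, 785 and 1214 counts, against 13.3, 24.4, 20.99 and 19.2 CPM in G3 1 to 4, from 146, 330, 234 and 256 counts. Every G3 PGC1aOE library was above every G3 library, with the smallest gap between G3 PGC1aOE 1 and G3 2. The mean was 58.8 ± 29.8 CPM (SD, n = 3) in G3 PGC1aOE and 19.5 ± 4.63 CPM (SD, n = 4) in G3. Libraries spread by 2.99-fold within G3 PGC1aOE and by 1.83-fold within G3. Igf2 was 1 of the 9 members whose groups did not overlap. Such separation with the higher values in G3 PGC1aOE held for 2.19% of all tested genes, and in either direction for 4.58%. On the log2 scale the fold change was 1.59, with a standard error of 0.34 and 95% limits of 0.83 and 2.35 (edgeR, adjusted p = 0.847). Without G3 PGC1aOE 3, the highest library, it was 1.16. Against G3 1 and G3 2 alone, the G3 libraries whose code also carries C, it was 1.66, and with each library's trend on gene length removed it was 1.62.

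Igf1, the ligand that growth hormone induces, did not follow Igf2. It measured 13.3, 14.3 and 13.3 CPM in G3 PGC1aOE 1 to 3, against 21.5, 7.98, 10.1 and 4.51 CPM in G3 1 to 4. The G3 PGC1aOE libraries lay within a factor of 1.08 of each other and inside the G3 range, which spanned a factor of 4.77. The log2 fold change was 0.31 with a standard error of 0.42 (edgeR, adjusted p = 0.883). Leaving out G3 1 gave 0.85, leaving out G3 2 gave 0.18 and leaving out G3 4 gave 0.05. Against G3 1 and G3 2 alone it was -0.10.

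Igf1r, the signalling receptor gene, was among the members with the fewest counts. It measured 9.47, 2.91 and 8.39 CPM in G3 PGC1aOE 1 to 3, from 122, 40 and 114 counts, against 12.9, 19.7, 7.71 and 10.9 CPM in G3 1 to 4, from 141, 266, 86 and 145 counts. G3 3 was below 2 of the G3 PGC1aOE libraries, so the groups overlapped, and G3 PGC1aOE 2 was the lowest of all. Its log2 fold change was -0.89, with a standard error of 0.42 and 95% limits of -1.82 and 0.04 (edgeR, adjusted p = 0.847). It was -0.52 without G3 PGC1aOE 2 and -0.60 without G3 2. With the length trend removed it was -0.78.

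Igf2r, the clearance receptor for IGF2, split the G3 PGC1aOE libraries. It measured 226, 77.9 and 92.5 CPM in G3 PGC1aOE 1 to 3, against 219, 147, 197 and 154 CPM in G3 1 to 4. G3 PGC1aOE 1 was the highest of all 7 libraries, and G3 PGC1aOE 2 and 3 were the lowest. Those 2 libraries were the lowest for 14.1% of all tested genes, and Igf2r was the only 1 of the 9 members among them. For Igf2r the log2 fold change was -0.44 with a standard error of 0.37 (edgeR, adjusted p = 0.847). Leaving out G3 PGC1aOE 1 gave -1.08, leaving out G3 PGC1aOE 2 gave -0.17 and leaving out G3 PGC1aOE 3 gave -0.24. Over all tested genes, the 3169 genes with the shortest deposited length had a median of 0.20 on the log2 scale, and the 3169 longest had -0.14. With the length trend removed the value of Igf2r was -0.42. The trend was fitted on the deposited lengths, which can be shorter than the longest annotated transcript. Igf2r had 2549 against 8887 bp, Igf1r 4489 against 11409 bp and Igf2 2000 against 4722 bp. The values of these genes with the trend removed hold for the deposited lengths only.

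**Figure D2:**
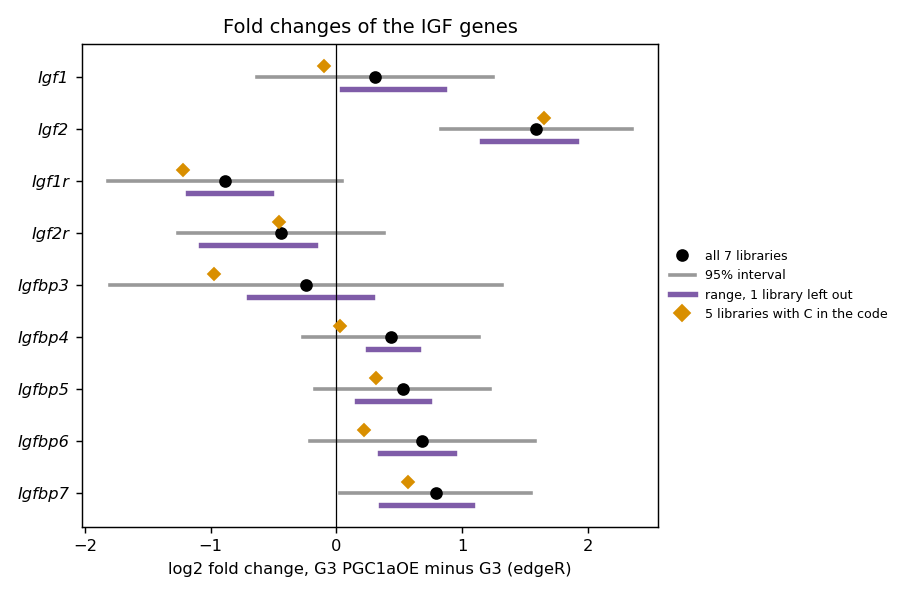
Log2 fold change of each member, G3 PGC1aOE minus G3, from edgeR. Black points and grey lines are the estimate and its 95% interval from all 7 libraries, purple bars the range when each library is left out in turn, and orange diamonds the value from the 5 libraries whose code carries the letter C. The Igf2 interval, from 0.83 to 2.35, is farthest from 0, and the diamond of Igfbp3 lies at -0.98 against -0.24 for all libraries.

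None of the 5 binding protein genes separated the groups, and 4 of the 5 had a positive log2 fold change, with a median of 0.53. Igfbp3, which codes for the main carrier of IGF in blood, measured 124, 60.6 and 57.4 CPM in G3 PGC1aOE 1 to 3, against 139, 183, 25.7 and 34.0 CPM in G3 1 to 4. G3 1 and G3 2 were above every other library, and G3 3 and G3 4 below every other, a 7.12-fold range within G3. The log2 fold change was -0.24 with a standard error of 0.68 (edgeR, adjusted p = 0.944). Its sign was not stable, at 0.29 without G3 2 and -0.57 without G3 3. Against G3 1 and G3 2 alone it was -0.98, with means of 80.8 CPM in G3 PGC1aOE and 161 CPM in those 2 libraries.

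Igfbp4, an inhibitor of IGF action that PAPP-A cleaves, measured 138, 172 and 151 CPM in G3 PGC1aOE 1 to 3, against 160, 145, 82.6 and 67.9 CPM in G3 1 to 4. G3 1 and G3 2 lay among the G3 PGC1aOE libraries, and G3 3 and G3 4 lay well below. Igfbp4 had a log2 fold change of 0.43 with a standard error of 0.32, and 0.03 against G3 1 and G3 2 alone. Leaving out G3 1 gave 0.65, leaving out G3 3 gave 0.29 and leaving out G3 4 gave 0.26.

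Igfbp6, whose product prefers IGF2 over IGF1, measured 20.96, 44.1 and 28.4 CPM in G3 PGC1aOE 1 to 3, against 25.6, 28.6, 8.25 and 15.0 CPM in G3 1 to 4. It had the same 2 lowest libraries, G3 3 and G3 4. Igfbp6 had a log2 fold change of 0.69 with a standard error of 0.40, 0.35 without G3 PGC1aOE 2, 0.41 without G3 3, and 0.22 against G3 1 and G3 2 alone.

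Igfbp7, a secreted protein of vessel walls with low affinity for IGF, had the widest range within G3 PGC1aOE among the 5 binding protein genes, 2.74-fold. It measured 131, 359 and 218 CPM in G3 PGC1aOE 1 to 3, against 153, 169, 96.4 and 127 CPM in G3 1 to 4. G3 PGC1aOE 2 and 3 were above all G3 libraries and G3 PGC1aOE 1 was among them. Igfbp7 had a log2 fold change of 0.79, with a standard error of 0.34 and 95% limits of 0.03 and 1.55 (edgeR, adjusted p = 0.847). It was 0.36 without G3 PGC1aOE 2 and 0.57 against G3 1 and G3 2 alone.

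Igfbp5, a binding protein that adheres to extracellular matrix, measured 83.9, 93.6 and 165 CPM in G3 PGC1aOE 1 to 3, against 74.8, 111, 53.1 and 77.7 CPM in G3 1 to 4. G3 PGC1aOE 3 was the highest and G3 3 the lowest, and the groups overlapped. Igfbp5 had a log2 fold change of 0.53 with a standard error of 0.31, and 0.16 without G3 PGC1aOE 3. Igfbp4, Igfbp5 and Igfbp6 all had an adjusted p of 0.847 in edgeR.

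G3 3 and G3 4 were the 2 lowest libraries for 4 of the 5 binding proteins and for 4 of the 9 members. That order held for 7.01% of all tested genes, and the opposite, with both highest, for 5.74% and for 0 of the 9 members. The mean over the 5 libraries with C in their code was 3.78 times that over G3 3 and G3 4 for Igfbp3, 2.54 times for Igfbp6, 2.04 times for Igfbp4 and 1.84 times for Igfbp7. This pattern was seen in the values before the code was compared with it, and it was given no test. Several marker lists had these 2 libraries lowest in their sums. The macrophage and monocyte sum was 334 to 438 CPM in G3 PGC1aOE and 173 to 443 CPM in G3, with G3 3 at 213 and G3 4 at 173, and 6 of the 8 markers had both libraries lowest. Fibroblast markers summed to 1218 to 1876 CPM in G3 PGC1aOE and 688 to 1255 CPM in G3, with G3 3 at 818 and G3 4 at 688, and 3 of 10 had both lowest. Endothelial markers summed to 521 to 957 CPM in G3 PGC1aOE and 498 to 704 CPM in G3, and 0 of 8 had both lowest. Smooth muscle and pericyte markers summed to 483 to 1012 CPM in G3 PGC1aOE and 447 to 680 CPM in G3, and 0 of 7 did. The Schwann and neuronal sum was 17.7 to 24.7 CPM in G3 PGC1aOE and 9.62 to 14.1 CPM in G3, without overlap between the groups, and 3 of 5 tested markers had G3 3 and G3 4 lowest. Adipocyte, liver and skeletal muscle sums were also lowest in G3 3 and G3 4. The part of these cell types and tissues in the levels of the binding proteins was not tested.

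**Figure D3:**
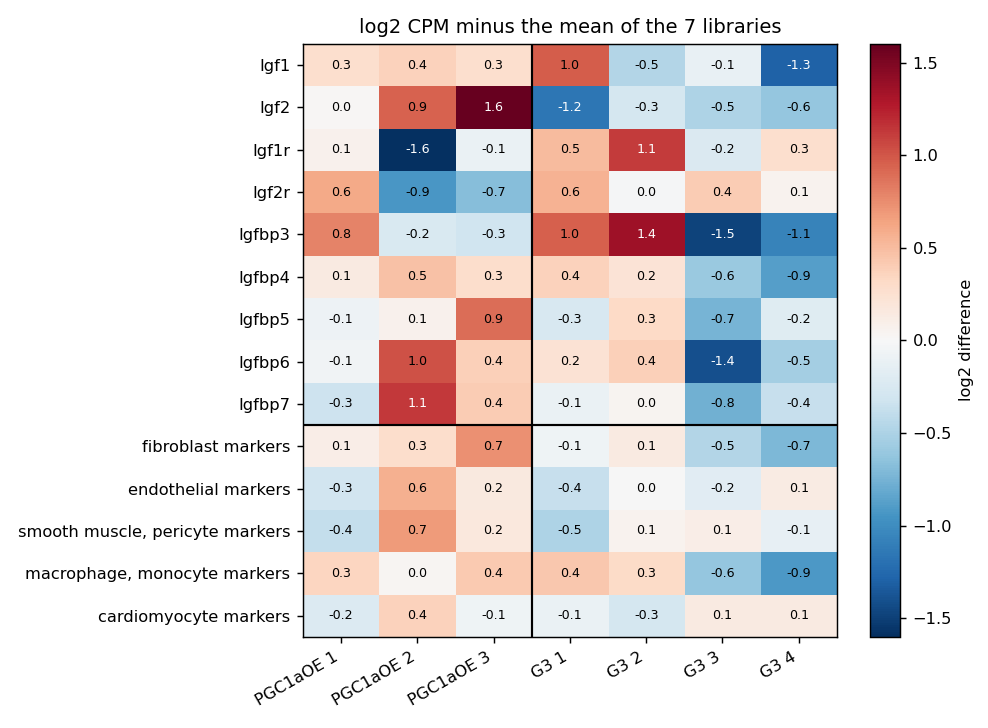
Each cell is the log2 CPM of a member, or of the sum of a marker list, minus its mean over the 7 libraries, with G3 PGC1aOE left of the line and G3 right of it. Igfbp3, Igfbp4, Igfbp6 and Igfbp7 and the macrophage and fibroblast sums are below their means in both G3 3 and G3 4. Igf1, Igf2 and Igfbp5 are also below their means in those columns. Igf2 is above its mean in G3 PGC1aOE 2 and 3.

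In the contrast that chose the members, 0 genes of any marker list passed the edgeR test, and the lists are described by their medians. The median log2 fold change was 0.85 for the 10 fibroblast markers, of which 9 were positive. It was 0.35 for the 8 endothelial markers and 0.36 for the 8 macrophage markers, each with 7 positive, and -0.02 for the 8 ventricular heart muscle markers. Smooth muscle and pericyte markers had 0.40, with 6 of 7 positive. Several other lists had larger medians, at 1.16 for atrial muscle (4 of 5 positive) and 1.21 for Schwann cells and neurons (5 of 5). Adipocytes had 1.64 (4 of 4), epicardium 0.99 (3 of 3) and liver 2.67 (2 of 2). Skeletal muscle had 0.51 from 1 tested marker, and erythroid cells had 0.23, with 2 of 3 positive. The erythroid sum was highest in G3 3, at 216 CPM. The atrial sum was 3945, 478 and 2310 CPM in G3 PGC1aOE 1 to 3, against 2653, 2845, 96.5 and 624 CPM in G3 1 to 4, so it did not separate the groups. Myl7, an atrial myosin light chain gene in that list, measured 0, 7.86 and 420 CPM in G3 PGC1aOE 1 to 3, against 113, 141, 0.718 and 0.451 CPM in G3 1 to 4. Adipocyte markers summed to 5.43, 18.9 and 29.5 CPM in G3 PGC1aOE 1 to 3, against 1.82, 29.1, 0.987 and 0.827 CPM in G3 1 to 4. The epicardial sum of 25.1 CPM and the liver sum of 29.0 CPM in G3 PGC1aOE 3, the library with the most Igf2, were the highest of the 7 libraries. The epicardial sum was 5.67 and 13.6 CPM in G3 PGC1aOE 1 and 2, against 6.75, 6.43, 7.09 and 14.6 CPM in G3 1 to 4. The liver sum was 4.4 and 4.3 CPM in G3 PGC1aOE 1 and 2, against 2.83, 3.47, 0.897 and 1.13 CPM in G3 1 to 4. Igf2 was higher in all 3 G3 PGC1aOE libraries, and the fibroblast sum was highest in G3 PGC1aOE 3 and next in G3 PGC1aOE 2, as for Igf2. At 1218 CPM, G3 PGC1aOE 1 was below G3 2, at 1255 CPM, in that sum. The part of these cell types and tissues in the level of Igf2 was not tested.

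Within the code numbers below 80, where G3 PGC1aOE 1 stands against G3 1, 2 and 3, the difference in log2 CPM was 0.65 for Igf2. At 80 and above, where G3 PGC1aOE 2 and 3 stand against G3 4, it was 1.89. For Igf1r the values were -0.40 below and -1.11 at 80 and above, and for Igf2r 0.29 and -0.86. Igfbp7 had -0.05 and 1.14, Igfbp6 0.20 and 1.23, Igfbp4 0.15 and 1.25, and Igfbp5 0.14 and 0.68. Igfbp3 had 0.52 and 0.79 within these ranges of code numbers, beside 0.14 over all libraries on this scale, and Igf1 had 0.14 and 1.58. In each range 1 of the groups holds a single library, so these differences have no test.

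Levels of different genes were compared per length, in fragments per kilobase of gene length, scaled to the total of the library (FPKM). Over the 7 libraries the order of mean log2(FPKM + 1) was Igfbp7, Igfbp4, Igf2r, Igfbp3, Igfbp6, Igfbp5, Igf2, Igf1 and Igf1r. Igfbp7 averaged 191 ± 84.5 FPKM in G3 PGC1aOE (SD, n = 3) and 123 ± 37.1 FPKM in G3 (SD, n = 4), and Igf1r 1.51 ± 0.877 FPKM in G3 PGC1aOE and 3.01 ± 1.40 FPKM in G3. No neighbours in the order passed an exact 2-sided sign-flip permutation test within libraries, adjusted over the 8 pairs. The largest step, Igf2 above Igf1, was 1.25 on the log2 scale and was seen in 6 of 7 libraries (exact permutation p = 0.0312, adjusted p = 0.125). The smallest possible p was 0.0156. Igfbp6 above Igfbp5 was a step of 0.18, with 4 of 7 libraries in that order (exact permutation, adjusted p = 0.438).

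The FPKM of Igf2 was 2.21, 3.93 and 6.62 times that of Igf1 in G3 PGC1aOE 1 to 3, against 0.608, 3.00, 2.03 and 4.19 times in G3 1 to 4. Igf1 exceeded Igf2 in G3 1 alone, and the groups overlapped. Binding protein FPKM summed to 362, 501 and 340 in G3 PGC1aOE 1 to 3, against 404, 455, 182 and 200 in G3 1 to 4. Divided by the summed ligand FPKM, this gave 15.0, 15.2 and 7.80 in G3 PGC1aOE 1 to 3, against 21.1, 24.9, 11.7 and 17.8 in G3 1 to 4. Binding protein messages thus exceeded ligand messages per length in every library. Igf2r exceeded Igf1r by 42.0, 47.1 and 19.4 times in G3 PGC1aOE 1 to 3, against 30.04, 13.1, 45.0 and 24.9 times in G3 1 to 4.

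The length behind these FPKM values was shorter than the longest annotated transcript for 8 of the 9 members, and equal to it, at 1112 bp, for Igfbp6. For 7 of the 9 members it equalled, within 1 bp, the plain mean over all transcripts of the gene in GENCODE M21, short fragments included. The Igf2r length was 2549 bp against a longest transcript of 8887 bp, Igf1r had 4489 against 11409 bp, and Igf1 1964 against 7052 bp, while Igfbp7 had 1158 against 1200 bp. Rescaled to the longest transcript, Igf2r averaged 15.1 FPKM in G3 PGC1aOE and 20.9 FPKM in G3, against deposited values of 52.5 and 73.0. It then stood below Igfbp3 and Igfbp6 in the order. By mean log2(FPKM + 1), Igfbp7 and Igfbp4 remained first and second, and Igf2, Igf1 and Igf1r remained last in that order. By the plain mean over the 7 libraries, Igfbp3 stood above Igfbp4, at 38.8 against 34.4 FPKM. Igfbp3 had 42.8 against 31.5 FPKM for Igfbp4 in G3, but 33.4 against 38.3 FPKM in G3 PGC1aOE. Igf2r still exceeded Igf1r per length in each library, by 14.2 to 34.3 times in G3 PGC1aOE and 9.58 to 32.8 times in G3.

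**Figure D4:**
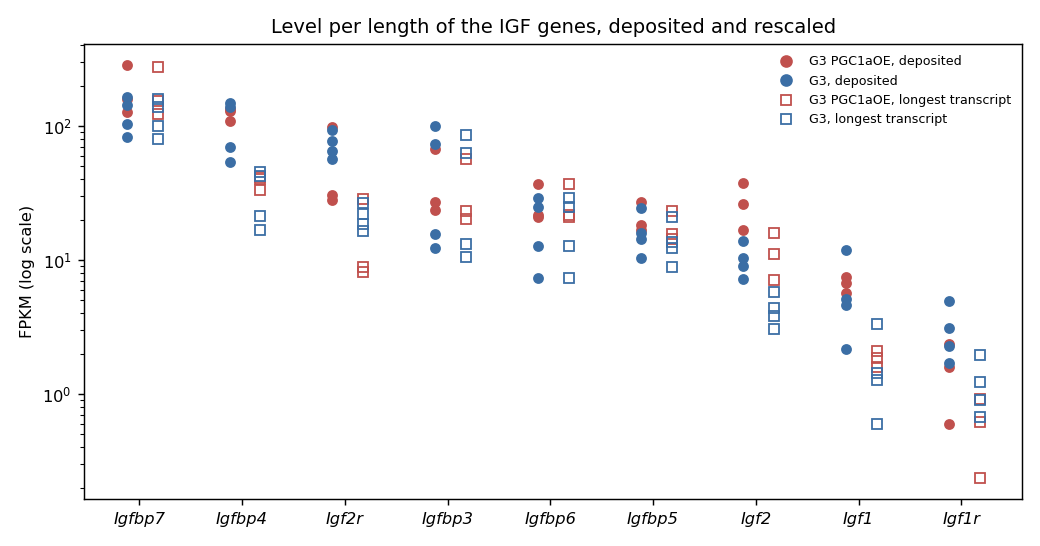
FPKM of each member on a log axis, ordered by mean level, with 1 point per library, red for G3 PGC1aOE and blue for G3. Filled circles are the deposited values and open squares the same values rescaled to the longest annotated transcript. Igf2r moves from rank 3 to rank 5, and Igf1r stays lowest.

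The members differed in how far libraries of a group lay apart. The within-group SD of log2 CPM was 1.17 for Igfbp3, above that of 97.8% of all tested genes and of 99.1% of those within 0.5 log2 CPM of its mean level. It was 0.72 for Igf1r, 0.72 for Igfbp6, 0.71 for Igf1 and 0.58 for Igf2. Igfbp4 and Igfbp5 were the steadiest, at 0.48 and 0.47, and the median of all genes was 0.36.

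For each member, the genes with the most similar profile were taken by Pearson r of log2 CPM over the 7 libraries, among 10147 genes whose log2 CPM averaged 2 or more. With so few libraries many genes reach a high r, so the values are a description. Igf2 was most like Myoc (r = 0.961), Txndc9 (0.953) and Dpt (0.948), the last coding for the matrix protein dermatopontin. In deviations from the group means these had 0.866, 0.945 and 0.908. Igf2r was most like Washc5 (0.995), Rfc1 (0.995) and Mycbp2 (0.993), and Igf1r was similar to Ston1 (0.985). Igfbp5 was most like the matrix glycoprotein genes Fn1 (0.973) and Thbs1 (0.969). Igfbp6 was most like Pld4 (0.983), Igfbp7 like Tmem219 (0.992), Igfbp3 like Itih4 (0.976), Igfbp4 like Pmepa1 (0.976) and Igf1 like Ctla2a (0.964). Among all pairs of members, r was strongest between Igfbp6 and Igfbp7, at 0.898, and between Igfbp7 and Igf2r, at -0.859. Next came Igfbp4 and Igfbp6, at 0.843, and Igf2 and Igf2r, at -0.821. In deviations from the group means these pairs had 0.855, -0.801, 0.78 and -0.821, in that order. The pairs were picked by their values.

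Other genes of the system were taken from a fixed list of 20, of which 10 were tested and 0 passed in either direction. Of the 10, 2 had a positive and 8 a negative log2 fold change, with a median of -0.23. Insr, the insulin receptor gene, measured 212, 64.6 and 76.5 CPM in G3 PGC1aOE 1 to 3, against 227, 175, 166 and 139 CPM in G3 1 to 4. G3 PGC1aOE 2 and 3 were its 2 lowest libraries, as for Igf2r, and its log2 fold change was -0.59 with a standard error of 0.40. The lysosomal protease genes Ctsd and Ctsb had -0.29 and -0.04, and Htra3, a secreted serine protease gene, had 0.32. Igfals, at a lower level, had -1.15 with a standard error of 0.52 (edgeR, adjusted p = 0.847). Igfbp1 and Igfbp2 were under the filter on low counts. Igfbp2 had 21, 7 and 16 counts in G3 PGC1aOE 1 to 3, against 3, 3, 1 and 6 in G3 1 to 4, and Igfbp1 had 1 count in all 7 libraries.

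Of 15 adaptors and inhibitors at IGF1R, 14 were tested and 0 passed, with 5 positive, 9 negative and a median of -0.16. Nedd4, a ubiquitin ligase that acts on the receptor pathway, measured 404, 154 and 309 CPM in G3 PGC1aOE 1 to 3, against 442, 426, 440 and 420 CPM in G3 1 to 4, without overlap. Its log2 fold change was -0.58 with a standard error of 0.32, and separation with the lower values in G3 PGC1aOE held for 2.39% of all tested genes. Ptpn11, the phosphatase SHP2, had -0.69, the receptor-binding inhibitor gene Grb14 -0.30 and the scaffold gene Rack1 0.35.

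All 7 genes of the growth hormone axis, which drives Igf1 in many tissues, were tested and 0 passed, with 1 positive, 6 negative and a median of -0.14. The growth hormone receptor gene Ghr stood at 98.3 ± 18.1 CPM (SD, n = 3) in G3 PGC1aOE and 107 ± 19.8 CPM (SD, n = 4) in G3. Cish had a log2 fold change of -0.43, Stat5b -0.16 and Socs2 -0.11.

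Of 25 imprinted genes that are expressed together during growth, 20 had a row and 16 were tested, and 0 passed, with 7 positive, 9 negative and a median of -0.06. The 4 of highest mean level were Dcn, with 0.37, Grb10 with -0.23, Gnas with -0.33 and Ppp1r9a with -0.26. Dcn is also in the list of fibroblast markers above. Among the 7 positive genes, beside the 9 negative ones, were Nnat with 0.96, Ndn with 0.95 and Cdkn1c with 0.795. Those 3 had an adjusted p of 0.847 in edgeR. Among 10 genes that the rodent heart or embryo silences around birth, 3 were tested, Igf2, Myh7 and Tnni1. Myh7 measured 8072, 395 and 265 CPM in G3 PGC1aOE 1 to 3, against 6071, 4906, 293 and 1206 CPM in G3 1 to 4, and Tnni1 had a log2 fold change of -0.12. Igf2 and Myh7 differed in order: the highest Igf2 library, G3 PGC1aOE 3, was the lowest for Myh7. Hmga1, the only tested gene of the short list around Lin28 and let-7, had -0.68.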

How the data were processed

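RNA of the left ventricle, isolated by Trizol, went into TruSeq RNA libraries, per the labels' protocols. The authors deposited a table of whole-number counts by Ensembl identifier, not normalized, and a table of FPKM. The deposited FPKM could be rebuilt from the counts, each library's total and 1 length for each gene. That length matched the mean GENCODE M21 transcript length within 1 bp for 65.0% of 17627 genes. CASAVA and Bowtie 0.12.2 with the mm9 build were used, per the submitters' processing notes. Not given in the sources used here: the counting program, its annotation, its strand setting. A kit of this kind does not mark strand, so reads of overlapping genes cannot be told apart. Symbols were found for 21748 of 22027 identifiers and 279 had none.

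Counts were scaled by TMM, filtered with filterByExpr and tested with edgeR 4.0.16 in R 4.3.3 (quasi-likelihood, robust, group as the only term, 2-sided, Benjamini-Hochberg at 0.05). Intervals are at 95%. CPM use TMM-scaled totals, and log2 CPM a prior count of 2. The fit was tested on simulated counts. DESeq2 1.42.0 and limma 3.58.1, other scalings, filters and covariates, leaving out each library and a replicate block were alternatives. FPKM were tested within libraries as log2(FPKM + 1). The members, lists and alternatives were chosen with earlier results of these data known. The named genes are the members, Ppargc1a, the 4 tested genes of highest mean level in each context list, and the 3 most similar to each member, of which some are not reported here. Igfbp1 and Igfbp2 were added after their counts were seen, and Igfals, Nnat, Ndn and Cdkn1c after their fold changes were seen. Promoter windows come from RefSeq, GRCm38.p6, and no coordinates were converted from mm9.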

Additional observations from a re-analysis of the deposited data

How the results depend on the processing

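With 3 and 4 libraries, depth from 10106705 counts and a biological coefficient of variation of 31.2%, no member passed under any of the 20 alternatives. The count of genes past the threshold was 0 except with DESeq2 (3, Acot1, Col3a1 and Ptn) and with the replicate block (4, H2-Ab1, H2-Eb1, Retnla and Scd4, named after their values were seen). Deviations from the group means in same-numbered libraries correlated across genes at 0.378, 0.256 and 0.00 for numbers 1 to 3. G3 PGC1aOE 1 and 2 each correlated best with their own number, and G3 PGC1aOE 3 did not. These values do not settle whether the replicate numbers pair the libraries. With the block, Igf2 had a log2 fold change of 1.498 (edgeR, adjusted p = 0.0959). Leaving out each library gave 1.16 to 1.91 for Igf2, -1.18 to -0.52 for Igf1r, -1.08 to -0.17 for Igf2r and -0.70 to 0.29 for Igfbp3.

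The sign of Igfbp3 turned to 0.009 with log2(FPKM + 1), to 0.022 with log2(FPKM + 0.1) and to 0.426 when the code number was a covariate, and that of Igf1 to -0.10 with the libraries whose code carries the letter C, an alternative chosen after seeing the data. The step from Igf2r to Igfbp3 was 0.725 with the deposited lengths and -0.79 with the longest transcript as the length, also chosen after seeing the data. That change follows from the lengths, which differ by 3.49-fold for Igf2r and 1.17-fold for Igfbp3. The cause of the other changes was not tested. Over its alternatives, Igf2 had a log2 fold change of 1.16 to 1.91 and an adjusted p of 0.0645 (DESeq2) to 1.0 (edgeR with the code number). The relation of Igf2 and H19 and its alternatives were not run, since H19 was not analysed here.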
